A study of Sus scrofa with 21 samples.

Results

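KLF2, KLF4, NOS3, PIEZO1, CAV1 and EDN1 are genes that endothelial cells, the cells lining blood vessels, use to sense and answer flowing blood. They were chosen by name, and all 6 were found, each in 1 row, among the 24358 pig genes of the deposited table. The RNA came from 3 pigs (Sus scrofa) in a study of a 3D-printed microbrush, a device passed through an artery to pick up endothelial cells. The microbrush gave 10 libraries, 5 from peripheral kidney arteries and 5 from peripheral liver arteries. A Nitinol wire with no brush attached was the negative control and gave 4 libraries, 1 per organ in each pig. The device libraries were split evenly between pigs 243K and 248K, with 5 brushes and 2 wires from each. Blood gave 3 libraries, of which 2 came from pig 243K and 1 from pig 248K. Aorta removed surgically was the positive control, and all 4 of its libraries came from pig 237053. The labels give no strain, age, sex or treatment for the pigs. Several libraries came from each animal, so the p-values measure the spread between libraries and not between pigs.

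Blood moving over endothelium exerts shear stress, a drag along the vessel wall. PIEZO1 is an ion channel that opens when the membrane is stretched or sheared, and CAV1 is the main coat protein of caveolae, small membrane pockets that hold signalling proteins. Steady, unidirectional flow activates the kinases MEK5 and ERK5 and MEF2 factors, which switch on KLF2 and KLF4, related zinc finger transcription factors. In endothelium, KLF2 and KLF4 raise NOS3, the enzyme that makes the vessel-relaxing gas nitric oxide, and hold down EDN1, the precursor of the vessel-constricting peptide endothelin-1. None of these genes is limited to endothelium: KLF2 keeps T cells quiescent, PIEZO1 works in red blood cells, KLF4 works in epithelium and myeloid cells, and CAV1 is abundant in smooth muscle.

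In the Sscrofa11.1 build the genes lie apart from each other except for NOS3 and CAV1, which share a chromosome. KLF2 (ENSSSCG00000038911) is at chr2:61270733-61273037 and KLF4 (ENSSSCG00000005437) at chr1:248604817-248609574. NOS3 (ENSSSCG00000016450) is at chr18:6209218-6228912 and CAV1 (ENSSSCG00000016634) at chr18:29648120-29682451. PIEZO1 (ENSSSCG00000035230) is at chr6:914480-967113 and EDN1 (ENSSSCG00000035598) at chr7:8752018-8758354. These positions are those of the RefSeq genes of the same symbol.

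Levels below are CPM, counts scaled to 1000000 per library, after TMM scaling, which evens out differences in library composition, over 20 libraries with 1144932 to 11128400 counts. The files give no transcript lengths, so levels are compared between libraries and not between genes. Blood 2 held 5634 counts over 302 genes, with 2 counts for KLF4 and none for the other 5 genes, and was left out of the levels and tests. At its depth a count of 0 allows up to 532 CPM. Among the device libraries, microbrush 4 had counts for 3831 genes, wire 2 for 9715 and wire 3 for 10169, all from pig 248K, and the others for at least 12653. Marker genes of other cell types were summarised as a score, the mean log2(CPM + 1) over the list. The smooth muscle score ran from 3.09 to 11.5 in the microbrush libraries, 4.42 to 6.26 in the wires, 9.12 to 10.1 in aorta and 3.01 to 3.57 in blood. The endothelial score ran from 3.48 to 6.73 in the microbrush libraries, from 2.34 to 5.93 in the wires, from 3.66 to 4.14 in aorta and from 2.77 to 3.70 in blood. PECAM1, an endothelial adhesion protein that platelets and leukocytes also carry, was found in all 20 libraries. CDH5, a junction protein of endothelium, had no count in microbrush 4 and lay at 0.264 CPM in wire 3. Other markers went the other way in microbrush 4 and wire 3. KDR lay at 369 and 901 CPM there and TIE1 at 36.7 and 63.75 CPM, above every aorta library. CDH5 did not part aorta, at 12.6 to 26.6 CPM, from blood, at 4.56 and 15.6 CPM. In wires 2 and 3, 5 of 12 endothelial markers had no count each, and in microbrush 4 it was 4 of 12. In bulk RNA, fewer cells of a type and less RNA per cell cannot be told apart.

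**Figure D1:**
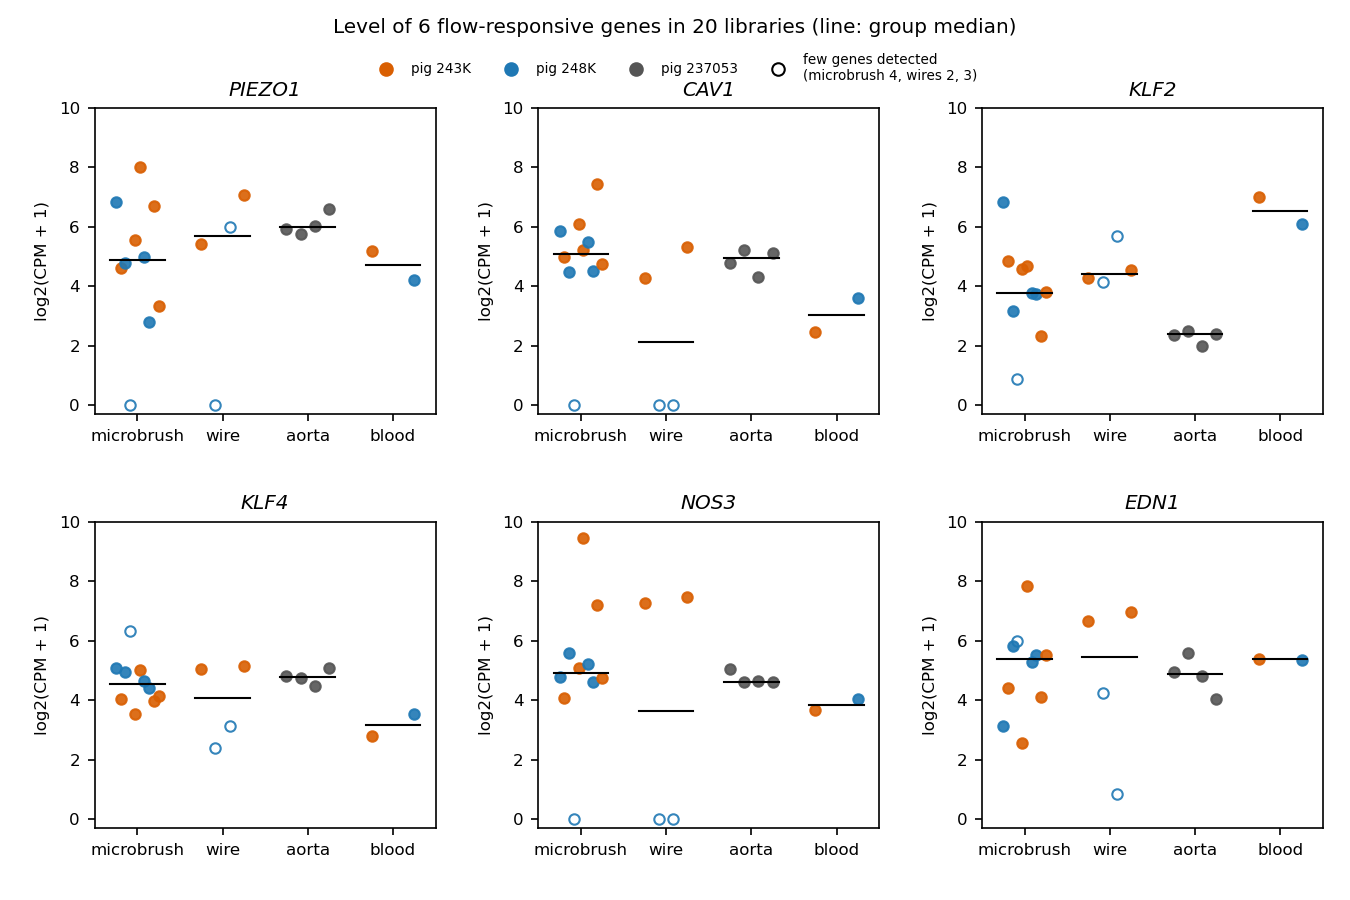
Level of each gene in every library, as log2(CPM + 1) after TMM scaling. Points are libraries coloured by pig, open points are microbrush 4 and wires 2 and 3, and lines are group medians. KLF2 was low in all 4 aorta libraries, and NOS3 and CAV1 lay at 0 in the 3 open points.

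PIEZO1, the channel that senses stretch and shear, varied more among the device libraries than among the aorta libraries. The 10 microbrush libraries ran from 0 CPM in microbrush 4 through a median of 28.8 to 257 CPM in microbrush 6. Wires 1 to 4 lay at 41.9, 0, 62.7 and 134 CPM. The 2 libraries without a PIEZO1 count, microbrush 4 and wire 2, were among those with few genes detected. Aorta 1 to 4 lay at 60.4, 52.8, 64.7 and 96.9 CPM (mean 68.7 ± 19.4 SD, n = 4). Blood lay at 35.4 and 17.7 CPM, below every aorta library. The aorta and blood groups did not overlap. How many of all genes separate them likewise was not counted, here or for CAV1 and KLF4 below. EdgeR called 28.5% of all genes between these groups. The fold change missed the threshold, with a log2 fold change of 1.09 (SE 0.47, edgeR adjusted p = 0.0658). Without blood 1 it passed, at 1.77 (edgeR adjusted p = 0.00587). By group mean aorta was highest and blood lowest. Microbrush and wire lay between, at 61.6 and 59.8 CPM after TMM scaling but 44.4 and 48.6 CPM before it, so their order turned with the scaling. Their libraries overlapped aorta.

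CAV1, the caveolar coat protein, was present in every aorta library and absent from a pair of wires. Microbrush values ran from 0 CPM in microbrush 4 through a median of 33.5 to 173 CPM in microbrush 9. Wires 1 and 4, from pig 243K, lay at 18.5 and 38.9 CPM, and wires 2 and 3, from pig 248K, had no count. Aorta lay at 26.6, 36.7, 18.9 and 34.0 CPM (mean 29.0 ± 8.02 SD, n = 4). Both blood libraries, at 4.56 and 11.09 CPM, were below every aorta library. CAV1 was higher in aorta than in blood, with a log2 fold change of 1.67 (SE 0.52, edgeR adjusted p = 0.00609). Without blood 1 the difference was 1.20 and the adjusted p 0.172 by edgeR, so this call rests on blood 1. The highest CAV1 levels among the device libraries stood beside the highest smooth muscle scores, with 173 CPM at a score of 11.5 in microbrush 9 and 67.6 CPM at 11.12 in microbrush 5. Microbrush 6 and wire 4 went the other way, with 36.5 and 38.9 CPM at smooth muscle scores of 6.04 and 4.83. All 11 smooth muscle markers were higher in aorta than in blood, and the part of smooth muscle in the CAV1 difference was not tested.

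KLF2, the factor switched on by steady flow, gave the largest fold change of the 6 genes in aorta against blood, with blood above aorta. Blood 1 and blood 3 lay at 127 and 67.8 CPM. Aorta 1 to 4 lay at 4.20, 4.71, 2.98 and 4.26 CPM (mean 4.03 ± 0.74 SD, n = 4). Wires 1 to 4 lay between these, at 18.5, 16.9, 50.8 and 22.3 CPM. Every wire was above every aorta library and below both blood libraries, and the share of all genes with this order was not counted. The 10 microbrush libraries ran from 0.864 CPM in microbrush 4, where KLF2 had 2 counts, through a median of 12.8 to 113.004 CPM in microbrush 1. They overlapped aorta through microbrush 4 and microbrush 9, the latter at 4.08 CPM, and overlapped blood through microbrush 1. Before TMM scaling microbrush 1 lay at 74.8 CPM, under both blood libraries. KLF2 was lower in aorta than in blood by a log2 fold change of -4.86 (SE 0.45, edgeR adjusted p = 5.34e-24). This call held when any of these aorta or blood libraries was left out, with log2 fold changes from -5.32 to -4.23, but was lost when all groups shared a common fit, at -4.80 (edgeR adjusted p = 0.0751). All aorta libraries came from 1 pig that gave no blood, so tissue and animal cannot be told apart.

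The device libraries lay nominally above aorta in KLF2, without passing the threshold over all genes. The log2 fold change was 2.57 for microbrush against aorta (SE 1.04, edgeR adjusted p = 0.725) and 2.80 for wire against aorta (SE 0.92, edgeR adjusted p = 0.155). DESeq2, another count test, called 6.75% of all genes in wire against aorta and this difference among them, at 2.53 (adjusted p = 0.00219). Against blood, KLF2 was nominally lower, by log2 fold changes of -1.99 in the microbrush libraries (SE 1.04, edgeR adjusted p = 1) and -2.04 in the wires (SE 0.85, edgeR adjusted p = 0.767). Beside KLF2, the leukocyte score was 7.18 and 6.26 in blood and 3.30 to 3.85 in aorta. In microbrush 1 and wire 3, the brush and the wire with the most KLF2 after TMM scaling, it was 5.90 and 6.43, each the highest of its device. The score rests on the same TMM-scaled levels as KLF2, and its order before scaling was not computed. Before TMM scaling wire 3, with a factor of 0.34, lay at 17.3 CPM of KLF2, under wire 4 at 22.6 CPM and within the range of the wires. In microbrush 9, with 4.08 CPM of KLF2, the leukocyte score was 2.15, the lowest of all 20 libraries. Of 12 leukocyte markers, 11 were lower in aorta than in blood, and their part in the KLF2 values was not tested.

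KLF4, the partner factor, ran opposite to KLF2 between aorta and blood. Aorta lay at 26.9, 25.5, 21.3 and 32.7 CPM (mean 26.6 ± 4.71 SD, n = 4) and blood at 6.01 and 10.5 CPM. The groups did not overlap, in a comparison where edgeR called 28.5% of all genes. The share of all genes without overlap was not counted, here or for the brushes against blood below. The log2 fold change of aorta against blood was 1.46 (SE 0.52, edgeR adjusted p = 0.0193). This call was lost without aorta 4, at 1.32 (edgeR adjusted p = 0.0522), and without blood 1, at 1.16 (edgeR adjusted p = 0.213). The microbrush libraries ran from 10.6 CPM in microbrush 5 through a median of 22.1 to 79.1 CPM in microbrush 4, and all lay above both blood libraries, which on CPM before TMM scaling overlapped them, with 10.5 CPM in microbrush 6 and 15.8 CPM in blood 3. Microbrush 4 had the most KLF4 and the least KLF2 of all 20 libraries. Wires 1 and 4 lay at 32.3 and 34.4 CPM, near the top of the aorta range, while wires 2 and 3 lay at 4.22 and 7.67 CPM, in or under the blood range. Neither device differed from aorta past the threshold, with log2 fold changes of 0.06 for microbrush (SE 0.71, edgeR adjusted p = 1) and -0.34 for wire (SE 0.87, edgeR adjusted p = 0.959).

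The difference KLF4 minus KLF2, each as log2(CPM + 1) in the same library, combines the opposite orders of these genes in aorta and blood. Every aorta library had less KLF2 and more KLF4 than both blood libraries. The difference therefore had to separate these groups and adds no evidence there. It lay between 2.22 and 2.68 in the 4 aorta libraries and at -4.19 and -2.58 in blood. The microbrush libraries ran from -1.75 in microbrush 1 through a median of 0.49 to 5.42 in microbrush 4. Leaving out microbrush 4, all of them lay between the blood and aorta ranges. Wires 1 and 4 lay at 0.77 and 0.61, wire 2 at -1.78, near microbrush 1, and wire 3 at -2.58, near blood 3. The measure takes up no difference in library scaling except through the added 1, but it combines every cell type in a library.

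**Figure D2:**
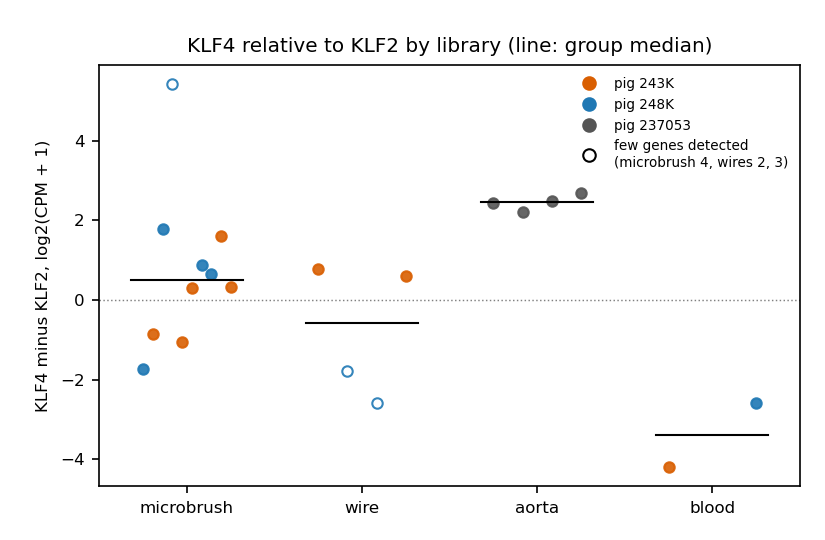
KLF4 minus KLF2 in each library, both as log2(CPM + 1), by group. Points are libraries coloured by pig, open points had few genes detected and lines are group medians. The aorta libraries lay between 2.22 and 2.68, both blood libraries under -2.5, and the devices spread between and, for microbrush 4, above.

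NOS3, the endothelial nitric oxide synthase, varied widely over the microbrush libraries. It lay at 695 CPM in microbrush 6, at 144 CPM in microbrush 9 and between 15.97 and 47.1 CPM in 7 of the others, and microbrush 4 had no count. Wires 1 and 4, from pig 243K, lay at 154 and 177 CPM, and wires 2 and 3, from pig 248K, had no count. Aorta lay at 32.2, 23.3, 23.8 and 23.4 CPM (mean 25.7 ± 4.35 SD, n = 4) and blood at 11.6 and 15.5 CPM. Microbrush 6, microbrush 9, wire 1 and wire 4, all from pig 243K, stood above every aorta library by a wide margin, and most other brushes lay around the aorta values. The value of microbrush 6 depends on scaling: its TMM factor of 0.339 turned 236 CPM before scaling into 695 CPM. NOS3 did not differ past the threshold between aorta and blood, at a log2 fold change of 0.69 (SE 0.49, edgeR adjusted p = 0.314). It was nominally higher in microbrush than in aorta, at 2.05 (SE 1.12, edgeR adjusted p = 1).

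After TMM scaling, high NOS3 stood beside high endothelial marker scores, on brush and wire alike. The 4 libraries with NOS3 above 100 CPM had the highest scores of the 20 libraries. These were 6.73 in microbrush 6, 5.93 in wire 4, 4.88 in wire 1 and 4.87 in microbrush 9. Microbrush 8 came next, with a score of 4.78 beside 23.1 CPM of NOS3. Both measures carry the same TMM scaling, and the order of the scores before it was not computed. The 3 libraries without a count had scores of 2.34 in wire 2, 3.27 in wire 3 and 3.54 in microbrush 4. The score is a mean of logs, which markers at 0 pull down. By summed CPM of the same markers the order differed. Wire 3 at 1665 and microbrush 4 at 947.7, both without NOS3, lay above microbrush 9 at 783.2 and wire 1 at 673. Wire 2 lay at 273.7 by that sum. Set against the endothelial score of the same library, NOS3 stood 2.71 log2 units above it in microbrush 6, 2.39 in wire 1, 2.31 in microbrush 9 and 1.54 in wire 4. In aorta that difference was 0.55 to 0.95, and in blood 0.88 and 0.35. NOS3 in those 4 device libraries thus exceeded aorta also relative to other endothelial markers, as it did in microbrush 5, at 1.60, and in microbrush 3, at 1.05. Of these 6 libraries microbrush 3 came from pig 248K and the others from pig 243K, and the pattern was seen after their levels were known. What part the number of endothelial cells had in it was not tested.

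**Figure D3:**
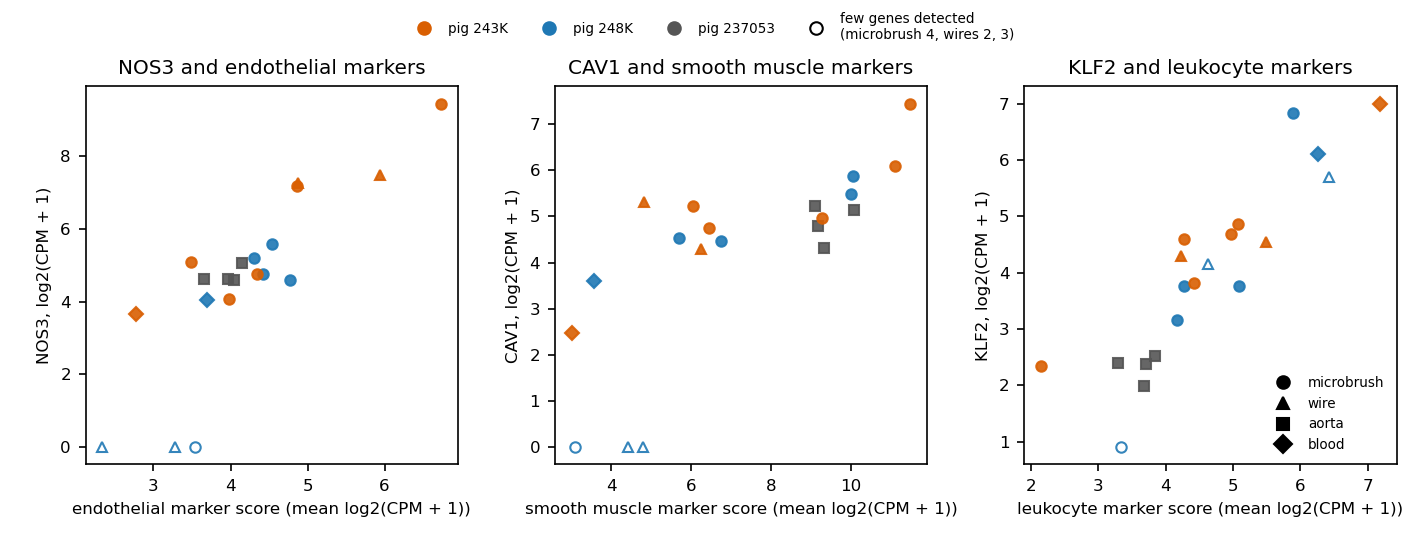
NOS3, CAV1 and KLF2 as log2(CPM + 1) in 20 libraries against the mean log2(CPM + 1) of endothelial, smooth muscle and leukocyte markers. Shapes are groups, colours are pigs and open points had few genes detected. Both axes are after TMM scaling. NOS3 was at 0 in 3 libraries with endothelial scores of 2.34 to 3.54, and KLF2 on this scale was highest in libraries with leukocyte scores of 5.90 or more, which before TMM scaling did not hold for wire 3.

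EDN1, which encodes the constrictor endothelin-1, was found in all 20 libraries. Microbrush values ran from 4.89 CPM in microbrush 5 through a median of 40.9 to 230 CPM in microbrush 6. Wires 1 and 4 lay at 99.3 and 123 CPM, wire 2 at 17.7 CPM and wire 3 at 0.794 CPM, which was 3 counts. Aorta lay at 30.1, 46.8, 27.3 and 15.3 CPM (mean 29.9 ± 13.0 SD, n = 4), and blood at 40.6 and 39.8 CPM. Blood lay inside the aorta range, and EDN1 did not differ past the threshold between them (log2 fold change -0.69, SE 0.42, edgeR adjusted p = 0.235). In microbrush 6, wire 1 and wire 4, the libraries with the most EDN1 after TMM scaling, NOS3 was at 695, 154 and 177 CPM. Before scaling, the most EDN1 was in wire 4 at 125 CPM and in microbrush 3 at 114.12 CPM, and microbrush 6 lay at 77.9 CPM. Microbrush 9 parted from them, with 16.3 CPM of EDN1 beside 144 CPM of NOS3.

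Across all genes, the comparisons differed widely in how many they called, and the 6 members were called in 1 of them. In aorta against blood, edgeR called 4875 of 17082 genes, or 28.5%, at an adjusted p under 0.05, and 3 of the 6 members: KLF2 lower, CAV1 and KLF4 higher. In wire against aorta it called 546 of 15313 genes, or 3.57%, and none of the 6 members, although DESeq2 called KLF2 there. In microbrush against aorta it called 21 of 16776 genes, or 0.125%, in microbrush against blood 3 of 17832 genes, or 0.0168%, and in wire against blood 8 of 16461 genes, or 0.0486%. No member was among these. With the pig as a block, wire against blood gave 17 called genes and again no member. In microbrush against wire, edgeR called no gene of 16439, or 0%, with 518 at an unadjusted p under 0.05, while DESeq2 called 0.546% of 21607. Neither test called a member, and the log2 fold changes ran from -0.37 for EDN1 (SE 0.90) to 1.70 for CAV1 (SE 1.19), each with an edgeR adjusted p of 1. These comparisons share libraries, so their results are not independent of each other.

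**Figure D4:**
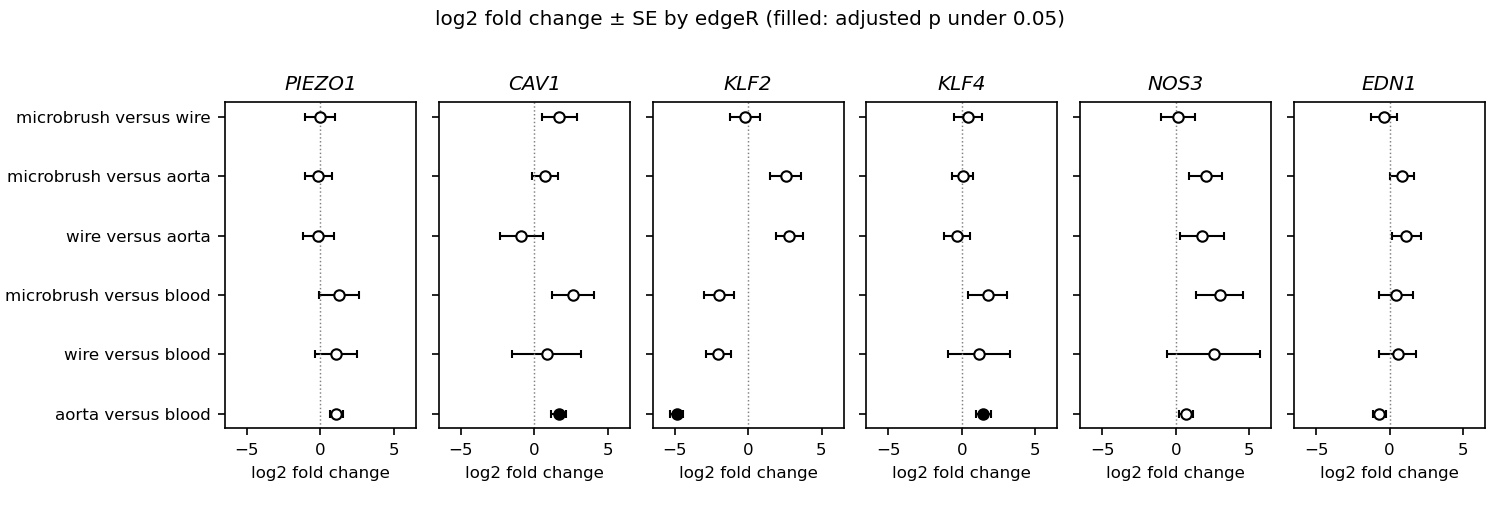
Log2 fold change of each gene in 6 comparisons, with bars of 1 SE from edgeR. Filled points passed an adjusted p of 0.05, and only KLF2, KLF4 and CAV1 in aorta against blood did. KLF2 lay to the right of 0 for both devices against aorta and to the left against blood.

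The 4 wires fell apart by pig, and several results on the wire depend on which wires enter. Without microbrush 4 and wires 2 and 3, a choice made after seeing the data that leaves only wires of pig 243K, wire against aorta called 8.47% of all genes, against 3.57% with them, and among the members KLF2 at a log2 fold change of 2.40 (edgeR adjusted p = 0.0243). It also called NOS3 at 2.77 (edgeR adjusted p = 0.000237) and EDN1 at 1.99 (edgeR adjusted p = 0.00709). Wire against blood then called 5.03% of all genes, against 0.0486%, with NOS3 at 3.47 (edgeR adjusted p = 6.09e-05) and KLF2 at -2.37 (edgeR adjusted p = 0.0128). Each of these rests on 2 wires. Microbrush against aorta and microbrush against wire still called no member.

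Whether brush and wire differed in the same way in both pigs was tested as an interaction. EdgeR called no gene of 17809, or 0%, with 3478 at an unadjusted p under 0.05. Without microbrush 4 it called 576 of 17896 genes, or 3.22%, among them NOS3 (edgeR adjusted p = 0.0347) and CAV1 (edgeR adjusted p = 0.0273), against 0.171 for each with it. Both genes had 0 of 13725335 counts in wires 2 and 3 together. Against the limit of 3 counts over that pair, 0.488 CPM, NOS3 was at least 67.9-fold higher in the 4 other microbrush libraries of pig 248K (mean 33.1 ± 10.8 CPM SD, n = 4) and CAV1 at least 74.5-fold higher (mean 36.3 ± 17.8 CPM SD, n = 4). With microbrush 4, which had no count for either gene, these bounds were 54.3-fold and 59.6-fold. They cover counting error only. In pig 243K, the wires had means of 165 CPM for NOS3 and 28.7 CPM for CAV1, within the range of the brushes. No count in wires 2 and 3 was common: 29.5% of the genes tested had none. Those 2 wires had few genes detected, and what part this had in the zeros was not tested.

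KLF4 showed opposite orders in the pigs. In pig 243K its 5 microbrush libraries lay between 10.6 and 31.0 CPM, under both wires at 32.3 and 34.4 CPM. In pig 248K its 5 microbrush libraries lay between 20.2 and 79.1 CPM, above both wires at 4.22 and 7.67 CPM. Both wires of pig 248K and microbrush 4, its highest brush at 79.1 CPM, were the libraries with few genes detected. Of the 17809 genes tested, 16 or 0.0898% showed this order in both pigs. That share covers only the order KLF4 was seen to take, after TMM scaling, and genes with the reverse order were not counted. The interaction was 3.68 on the log2 scale (SE 2.18, edgeR adjusted p = 0.363), and 3.70 without microbrush 4 (SE 1.24, edgeR adjusted p = 0.084), so it did not pass. On CPM without TMM scaling the groups overlapped in pig 243K, where microbrush 10 lay at 32.3 CPM and wire 1 at 28.3 CPM, and remained apart in pig 248K. EDN1 had an interaction of 3.07 (SE 1.88, edgeR adjusted p = 0.387), PIEZO1 of 0.39 (SE 1.93, edgeR adjusted p = 0.975) and KLF2 of 0.07 (SE 2.15, edgeR adjusted p = 1).

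**Figure D5:**
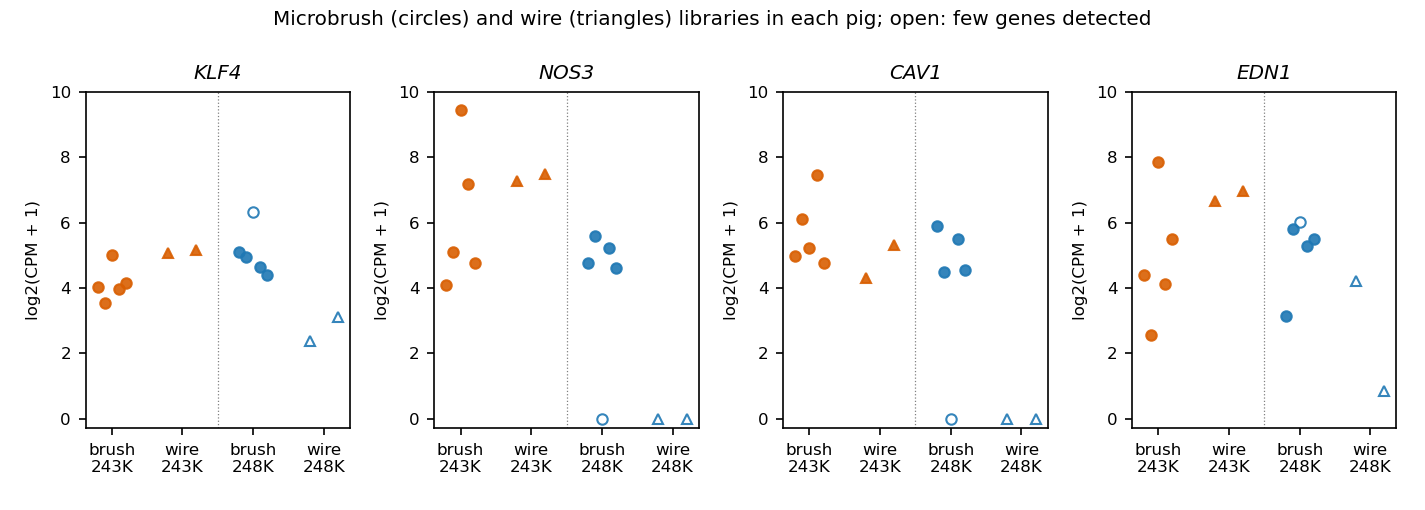
KLF4, NOS3, CAV1 and EDN1 as log2(CPM + 1) in microbrush (circles) and wire (triangles) libraries of each pig. Open points had few genes detected. After TMM scaling, but not before it in pig 243K, KLF4 lay lower on brushes than on wires in pig 243K and higher in pig 248K, and NOS3 and CAV1 were at 0 on both wires of pig 248K.

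Between the organs, edgeR called no gene of 15013, or 0%, in kidney against liver microbrush libraries, with 238 at an unadjusted p under 0.05, and DESeq2 called none. NOS3 had the smallest p of the members. Its kidney libraries lay at 15.97, 26.01, 26.2, 33.0 and 47.1 CPM, and its liver libraries at 0, 23.1, 36.0, 144 and 695 CPM. The log2 fold change of kidney against liver was -2.42 (SE 1.13, edgeR adjusted p = 1), and the groups overlapped. In pig 243K alone, with 3 kidney libraries, edgeR called 901 of 16224 genes. NOS3 was not among them, at a log2 fold change of -4.07 (SE 1.06, edgeR adjusted p = 0.0524). In pig 248K alone the value was 0.87 (SE 2.64, edgeR adjusted p = 1). KLF2 leaned the other way, at 1.92 over both pigs (SE 1.14, edgeR adjusted p = 1), with kidney values from 7.95 to 113.004 CPM and liver values from 0.864 to 24.9 CPM.

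Other genes of the shear pathway were counted from lists, in aorta against blood first. There 9.82% of all genes tested were higher in aorta and 18.7% lower. Of 16 shear sensors tested, 4 were higher in aorta and 3 lower. PKD1 and PKD2, the polycystins of the primary cilium, were higher at 4.33 and 3.20 on the log2 scale (edgeR adjusted p = 1.59e-07 and 1.84e-08). S1PR1, a lipid receptor of endothelium and lymphocytes, was lower at -2.71 (edgeR adjusted p = 2.03e-08). Of 11 genes in the MEK5, ERK5 and MEF2 arm upstream of KLF2 and KLF4, none was higher in aorta and 5 were lower. Among them were MAP3K2, a kinase that activates MEK5, at -2.21 (edgeR adjusted p = 8.14e-06), and KRIT1 and PDCD10, which restrain the pathway, at -2.03 and -2.29 (edgeR adjusted p = 9.87e-05 and 2.28e-06). The median log2 fold change of this list was -0.44, against 0.15 over all genes tested.

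Of 18 targets of KLF2 and KLF4 and genes raised by steady flow, 5 were higher in aorta and 3 lower. SOD3, the extracellular superoxide dismutase, was higher at 5.29 (edgeR adjusted p = 2.29e-10), and PTGIS, prostacyclin synthase, at 2.93 (edgeR adjusted p = 3.91e-06). Of 14 genes raised by disturbed flow or lowered by steady flow, 5 were also higher and 2 lower. Among the higher ones was VCAM1, a leukocyte adhesion protein, at 4.24 (edgeR adjusted p = 2.73e-12). The medians of these lists were 0.28 and 0.75. Neither of these lists thus moved in 1 direction. Of 8 caveola genes, 5 including CAV1 were higher, led by the coat proteins CAVIN3 at 6.29 and CAVIN1 at 4.58 (edgeR adjusted p = 6.44e-15 and 2.74e-08), and 1 was lower. Of 16 nitric oxide genes, 4 were higher, among them PRKG1, the cGMP-dependent kinase of smooth muscle, at 3.53 (edgeR adjusted p = 3.97e-08). The 3 lower ones included ARG1, arginase, which competes for the substrate of NOS3, at -5.42 (edgeR adjusted p = 4.6e-24). Of 4 endothelin genes tested, 1 was higher, the receptor EDNRA, at 1.76 (edgeR adjusted p = 0.00975).

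In the KLF family, 4 of 16 genes were higher in aorta and 3 lower, KLF4 and KLF2 included. KLF15 and KLF9 were higher at 2.98 and 2.44 (edgeR adjusted p = 1.5e-07 and 4.29e-05). Of 17 immediate early genes, which respond within minutes to handling as well as to signals, 3 were higher and 4 lower, with EGR1 and JUN at 2.61 and 2.63 and MYC at -2.08 (edgeR adjusted p = 1.07e-05, 4.22e-05 and 7.92e-06). Of 11 endothelial markers tested, 1 was higher in aorta. All 8 fibroblast and matrix markers were higher, and 7 of 9 red cell and 5 of 7 platelet markers were lower. Their part in the counts of these lists was not tested.

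In wire against aorta, where edgeR called none of the 6 members and DESeq2 called KLF2, edgeR called a few genes of the same pathways higher on the wire, beside 2.8% of all genes higher and 0.764% lower. KDR, the VEGF receptor in the shear-sensing complex, was higher at 4.89 and PECAM1, its partner, at 2.88 (edgeR adjusted p = 0.00975 and 0.02). NQO1, an antioxidant enzyme, was higher at 4.15, CAVIN2, a caveola protein, at 3.10, and DDAH1, which degrades inhibitors of nitric oxide synthase, at 2.86 (edgeR adjusted p = 0.0166, 0.0315 and 0.0425). These were the only called genes of their lists. Beside them, 5 of 11 smooth muscle markers were lower and 5 of 7 platelet markers higher on the wire. KDR lay at 127, 86.0, 901 and 112.3 CPM in wires 1 to 4, thus also in the pair without NOS3, while the platelet score was highest in wire 3, at 9.31. No gene of these pathway lists was called in microbrush against wire, aorta or blood, or in wire against blood.

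Genes with the pattern most like each member were ranked by Spearman's rho over the 14 device libraries, among 11831 genes with a symbol. Nearest to KLF2 were CTSW, a protease of cytotoxic lymphocytes (0.969), and ADCY7, IL4R, GRK6 and RGS19 (0.873 to 0.908). Nearest to KLF4 were SHARPIN (0.899), MED10, LYAR, ZNF341 and ADCK1. NOS3 was most like HID1 (0.97), SEMA3G, PKN3, SCARA3 and SPTBN5, and EDN1 was most like TANC2 (0.934), CFAP119, NPTXR, VPS72 and CGNL1. PIEZO1 was most like SMURF1 (0.977), UNKL, DAXX, GPR107 and GALNS, and CAV1 like CCND1 (0.988), RUSC2, RGS12, DHRS7B and VPS39. Over the 10 microbrush libraries alone, NOS3 kept 3 of its 5 genes, KLF2 kept 2, KLF4 kept 1 and the other members none. Among the members themselves, rho was highest for NOS3 with PIEZO1 (0.701) and KLF4 with EDN1 (0.697) and was 0.002 for NOS3 with KLF2 and -0.125 for KLF4 with KLF2. These libraries share 2 pigs, and the 3 with few genes detected put several genes at 0 together, so the values are descriptions.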

How the data were processed

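Bulk RNA was sequenced from 21 pig libraries. Per the labels' protocols, the RNAdvance Tissue kit (reagent volumes reduced) and the SMARTer Pico kit were used. Per the submitters' processing notes, Salmon and DESeq2 were used with the build Sscrofa11.1, and their versions are not given in the sources used here. The authors deposited estimated counts for each Ensembl gene, with no scaling between libraries. Of these values 11.9% were not whole, and they were rounded for the tests. Symbols and positions came from gene tables, which named 14692 of 24358 genes.

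Groups, organs and pigs came from the labels, and replicate numbers only name libraries. For every comparison only its own libraries entered the fit in edgeR 4.0.16 (R 4.3.3): filterByExpr with a minimum count of 10, TMM scaling, the robust quasi-likelihood test and Benjamini-Hochberg adjustment over all genes tested, read at 0.05. Blood 2, under 100000 counts, entered only as an alternative. The interaction was fitted with device, pig and their product. Levels are CPM after TMM over 20 libraries, with a pseudocount of 1 on log scales, so fold changes on that scale understate low genes. For a count of 0 the limit is 3 counts, which covers counting error only. Other settings were RLE scaling, no filter, a minimum count of 50, DESeq2 1.42.0, all groups in a common fit, pig as a replicate block, each pig or organ alone and each library left out. Brush and wire libraries of the same pig had a mean correlation of deviations of 0, and those of different pigs 0.02. Deviations were taken from the mean of each device, which holds the mean over all pairs near 0. Neither value alone thus shows whether libraries of a pig are alike. Pairing by pig comes from the labels. No library was a copy of another. The test was checked on simulated counts. Named besides the members were up to 3 called genes of each list per comparison, by p, or up to 2 where none was called, and the 5 genes most like each member. The members and the 15 lists were chosen with earlier results of these data known.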

Additional observations from a re-analysis of the deposited data

Results flagged for a closer look

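Of 30 sets of 4 to 10 libraries checked for a library far from the rest, 13 held one. The cutoff gives 1 in 20 only for independent, normally distributed values. These sets share libraries and CPM is skewed, so no excess over chance can be read from this number. These levels are after TMM scaling, and on CPM before it only 3 of the 13 remained: NOS3 in microbrush 6 (236 CPM) and CAV1 in microbrush 9 (141 CPM) among all brushes, and KLF4 in microbrush 4 (75.3 CPM) among the liver brushes. Microbrush 6, from the liver of pig 243K, stood apart in NOS3 (695 CPM), EDN1 (230 CPM) and PIEZO1 (257 CPM) among the 10 microbrush libraries, and in NOS3 and EDN1 also among the 5 from the liver. Its EDN1 and PIEZO1 no longer stood apart before scaling, at 77.9 and 87.1 CPM. Its TMM factor was 0.339, its endothelial score 6.73 and its platelet score 9.56. Microbrush 9 stood apart in CAV1 (173 CPM) in the same sets, beside a smooth muscle score of 11.5. Microbrush 1 stood apart in KLF2 (113.004 CPM) among all brushes and among the kidney brushes, and wire 3 in KLF2 (50.8 CPM) among the wires, with leukocyte scores of 5.90 and 6.43. Before scaling wire 3, with a factor of 0.34, lay at 17.3 CPM, inside the range of the other wires. Microbrush 4 stood apart in KLF4 (79.1 CPM, 183 counts) among all brushes and among the liver brushes, with counts for 3831 genes. Aorta 1 stood apart in NOS3 (32.2 CPM), where the other 3 lay between 23.3 and 23.8 CPM, but before scaling the 4 libraries were spread from 22.2 to 39.2 CPM. What part these companions have in the levels was not tested.

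The KLF4 difference between brush and wire took opposite signs in the pigs in every library after TMM scaling, with an interaction of 3.68 on the log2 scale. The test of that difference missed the threshold (edgeR adjusted p = 0.363), and before scaling brush and wire overlapped in pig 243K.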

How the results depend on the processing

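The 6 genes' log2 fold changes were recomputed in 580 settings, of which 505 kept the direction and the side of the threshold, 8 lost a call, 10 gained one and 57 changed sign without a call in either. Group means of the members' levels moved by over 1 SD in 9 of 48 recomputations with other scalings, and their differences from the endothelial score in 3 of 48 with other pseudocounts. The cause of each change below was not tested, except that settings with fewer libraries or genes lose them by construction. RLE scaling alone moved the median log2 fold change over all genes from 0.17 to 0.60 in microbrush against wire, and DESeq2, with another test and gene set, gave 0.71.

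In microbrush against wire the share of genes called was 0%, and 0.546% by DESeq2, 0.279% in pig 248K alone and 0% in every fit with a wire or microbrush 4 left out. In microbrush against aorta it was 0.125%, and 0.178% with no filter, 0.881% by DESeq2, 0.197% in the common fit and 0.215% without the 3 device libraries with few genes. Leaving out 1 library gave 0.0407% (aorta 4) to 0.215% (microbrush 4), with aorta 1, 2 and 3 at 0.0466%, 0.0581% and 0.07%. In wire against aorta it was 3.57%, and 6.75% by DESeq2, 0.746% in the common fit and 8.47% without the 3 libraries. Leaving out 1 library gave 0.399% (aorta 2) to 9.55% (wire 4), with aorta 1, 3 and 4 at 0.486%, 1.30% and 1.33%. In microbrush against blood it was 0.0168%, and 0% with RLE scaling, 0.0644% with no filter, 1.17% by DESeq2, 0.0658% in the common fit and 0% without the 3 libraries. Leaving out 1 library gave 0% (microbrush 4 or blood 1) to 0.027% (blood 3). In wire against blood it was 0.0486%, and 0.0182% with RLE scaling, 0.0238% with no filter, 0% at a minimum count of 50, 0.841% by DESeq2, 0% in the common fit, 0% with blood 2, 0.103% with the pig as a replicate block and 5.03% without the 3 libraries. Leaving out 1 library gave 0% (wire 2, wire 4 or blood 3) to 0.154% (wire 1), with blood 1 at 0.0115%. In aorta against blood it was 28.5%, and 0.532% in the common fit and 1.49% with blood 2, and leaving out 1 library gave 14.1% (blood 1) to 39.7% (blood 3). In kidney against liver it was 0%, and 0.00466% with no filter and 5.55% in pig 243K alone. The interaction gave 0%, and 3.22% without microbrush 4.

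Members changed sign as follows, on the log2 scale. In microbrush against wire, KLF2 (-0.19) was 0.032 with RLE scaling, 0.032 by DESeq2, 0.063 in the common fit, 0.023 in pig 248K, 0.91 in kidney libraries and 0.36 without the 3 libraries, and ran from -0.39 to 0.31 with 1 library left out. KLF4 (0.41) was -0.92 in pig 243K and -0.71 without the 3 libraries. NOS3 (0.16) was -0.17 with RLE scaling, -0.17 by DESeq2, -0.045 in the common fit, -1.58 in kidney libraries and -0.72 without the 3 libraries, and ran from -0.46 to 1.01 with 1 library left out. PIEZO1 (-0.04) was 0.039 with the pig block, 0.0051 in pig 243K, 0.59 in pig 248K and 0.54 in liver libraries, and ran from -0.46 to 0.70. EDN1 (-0.37) was 0.14 with the pig block, 2.23 in pig 248K and 0.36 in liver libraries, and ran from -0.92 to 0.45. In microbrush against aorta, KLF4 (0.06) was -0.22 with RLE scaling, -0.078 with no filter, -0.073 at a minimum count of 50, -0.23 by DESeq2, -0.082 in the common fit and -0.29 without the 3 libraries, and ran from -0.29 to 0.057. In wire against aorta without the 3 libraries, KLF4 was 0.40, PIEZO1 0.45 and CAV1 0.068, and PIEZO1 ran from -1.16 to 0.28 with 1 library left out. In microbrush against blood, EDN1 (0.41) was -0.082 with no filter, -0.061 in the common fit and -0.011 without the 3 libraries, and ran from -0.12 to 0.41. In wire against blood with the pig as a block, NOS3 was -3.95, CAV1 -4.85 and EDN1 -0.74; with 1 library left out CAV1 ran from -0.38 to 1.80 and EDN1 from -0.071 to 0.88. The block changed no member's call. In kidney against liver, PIEZO1 (-0.66) was 0.028 with the pig block, and in pig 248K alone NOS3 was 0.87, PIEZO1 2.57 and CAV1 0.90. With 1 library left out, KLF4 there ran from -0.79 to 0.029, PIEZO1 from -1.45 to 0.29 and CAV1 from -0.62 to 0.77. KLF2 did not pass the minimum count of 50 in wire against aorta and in kidney against liver, so that setting gave no value there.

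In aorta against blood, the common fit called no member (KLF2 at -4.80, edgeR adjusted p = 0.0751), and with blood 2 only KLF2 was called (-4.35, edgeR adjusted p = 0.0318).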

Other observations

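In kidney against liver microbrush libraries, 17 of 17 immediate early genes tested had a positive log2 fold change, with a median of 1.25 against 0.50 over all genes tested, and none was called by edgeR. Only 1 of 11 endothelial markers was positive there, at a median of -0.93, and 5 of 16 shear sensors, at -0.54. Between microbrush and wire, 6 of 8 caveola genes were higher on the brush, at a median of 1.23 against 0.17 over all genes, beside a median of 4.33 for 11 smooth muscle markers, and again none was called.

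Relative to the endothelial score of the same library, KLF2 stood at -1.97 to -1.26 log2 units in aorta and at 2.41 and 4.23 in blood. In microbrush 1 and wire 3 it stood at 2.42 in each, close to blood 3. For wire 3 this closeness depended on the pseudocount of 1. With 0.1 wire 3 stood at 3.95 and blood 3 at 2.555, and with 5 they stood at 1.32 and 2.01.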
